A study of Mus musculus with 12 samples.

Results

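Germline genes silenced in somatic cells are described here by 10 mouse genes, Ddx4, Dazl, Mael, Stag3, Slc25a31, Tdrkh, Sycp3, Stk31, Smc1b and Tex11. They were taken as a named set, and each was read through the probe sets annotated to that gene symbol alone. Each of the 10 had 1 such probe set, so no choice between probe sets was needed, and they are 10 of the 19938 genes tested. RNA was measured on 12 arrays of mouse embryonic fibroblasts, in 4 groups of 3 arrays, and every value below is a log2 RMA value, a background-corrected and normalized array signal on the log2 scale. The groups were Rb1 S/S cells, the Rb1 +/+ cells matched to them (the S controls), Rb1 L/L cells and the Rb1 +/+ cells matched to those (the L controls). The first pair of groups is the S set and the second the L set. All 4 groups were grown in 10% serum to passage 4 and then held in 0.1% serum for 72 h to stop division. Rb1 encodes the retinoblastoma protein, which binds E2F transcription factors and represses their target genes. What either allele alters in the protein is not stated in the labels, nor is whether the 3 arrays of a group came from separate embryos. The p-values therefore measure only the spread among these arrays, which may be technical in part or, in the S set, in whole.

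Germ cells make proteins that other cells do not need, among them RNA-binding proteins of the germ granules, the machinery of piRNAs (small RNAs that silence transposons) and the chromosome axis proteins of meiosis. In somatic cells the promoters of many such genes, often rich in CpG dinucleotides, are kept silent by DNA methylation and by a Polycomb complex that contains E2F6 and the paired factors MGA and MAX. E2F6 recognises E2F elements and MGA with MAX recognises E-boxes, and E2F6 is an E2F that the retinoblastoma protein does not bind.

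Promoters of these genes are shown because several carry the sequence elements by which this kind of silencing is known. RefSeq windows of build GRCm38.p6, from 250 bases before to 50 bases after an annotated start, were found for 9 of the 10 genes, and Tex11 was not matched. The E2F element TTCCCGC, searched on both strands, stood in the windows of 5 of these 9 genes (55.6%), against 5.29% of 27025 genes with a window. The E-box CACGTG, a palindrome, stood in 6 of 9 (66.7%), against 8.09% of all genes, and 4 of 9 held both (44.4%), against 0.61%. No element overlapped another. A match is a description of the letters in the window and not a measured binding site. CpG dinucleotides were counted for each gene in its window with the most of them. The median of the 9 genes was 28 (range 15 to 38), against 8 over all genes. Of 47 other genes of the piRNA pathway and meiosis with a window, 21.3% held the E2F element, 27.7% the E-box and 10.6% both. The E2F share was 5.56% in the piRNA pathway genes and 31.0% in the meiosis genes. By the same count the median of the 47 genes was 18 CpG dinucleotides. The windows of Ddx4 (chr13:112652261-112652560, minus strand) and Stag3 (chr5:138280259-138280558, plus strand) are printed whole, since the results below turn on these genes and both windows hold both elements. Both surround a start that lies inside the annotated span of the gene. Capitals mark the E2F element and the E-box, and TTCCCGC on the opposite strand reads GCGGGAA.

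Ddx4: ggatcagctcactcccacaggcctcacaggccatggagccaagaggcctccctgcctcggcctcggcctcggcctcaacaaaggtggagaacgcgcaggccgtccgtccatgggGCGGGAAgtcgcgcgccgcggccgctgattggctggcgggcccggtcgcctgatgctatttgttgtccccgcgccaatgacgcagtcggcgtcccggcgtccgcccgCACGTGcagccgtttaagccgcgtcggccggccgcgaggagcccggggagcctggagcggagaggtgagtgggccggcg

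Stag3: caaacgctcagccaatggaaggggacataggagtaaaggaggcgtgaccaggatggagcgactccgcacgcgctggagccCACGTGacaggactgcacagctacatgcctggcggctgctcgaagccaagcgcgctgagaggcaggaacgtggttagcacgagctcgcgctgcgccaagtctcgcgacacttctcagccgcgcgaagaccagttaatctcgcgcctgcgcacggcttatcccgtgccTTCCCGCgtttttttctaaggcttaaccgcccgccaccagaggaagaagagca

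For the other genes with an E2F element the stretch around it is enough to compare them. The stretches come from Slc25a31 (chr3:40708873-40708913, plus strand), Sycp3 (chr10:88459423-88459463, plus strand) and Smc1b (chr15:85131982-85132022, minus strand), each 41 bases long, with the element in capitals.

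Slc25a31: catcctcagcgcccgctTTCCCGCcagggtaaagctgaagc

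Sycp3: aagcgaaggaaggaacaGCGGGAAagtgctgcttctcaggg

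Smc1b: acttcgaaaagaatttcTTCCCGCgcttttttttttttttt

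In Stag3, Slc25a31 and Smc1b the element reads TTCCCGC on the strand of the gene, and in Ddx4 and Sycp3 it reads GCGGGAA. Slc25a31 and Sycp3 also hold an E-box elsewhere in the window, whereas Smc1b holds none. Mael and Stk31 hold an E-box without the E2F element, and Dazl and Tdrkh hold neither.

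One array differed from the rest, S control array 1, and it enters every comparison that uses the S controls. Its interquartile range over all genes was 2.72, against 3.17 to 3.39 on the others, and it correlated with them at 0.962 to 0.980, against 0.982 to 0.997 among the other 11. Dim probe sets read high on it. The median of the 1027 olfactory receptor genes, which are silent in most somatic cells and served here as the measure of background, was 4.86 on that array and 4.40 to 4.61 on the others. Against the mean of the other S control arrays, the 10 germline genes were higher on it by a median of 0.23, the olfactory receptors by 0.41 and all genes by 0.04, whereas genes with a mean of at least 8 were lower, with a median of -0.28. Of the 10 germline genes, 9 read higher on array 1 than on both other S control arrays, and 6 had their highest value of all 12 arrays there. Differences from the S controls are therefore followed by their value without this array. Y-linked transcripts were measured on 2 arrays, L control array 1 and L/L array 1. The Y-linked gene Eif2s3y read 9.15 and 9.09 there, and 3.83 to 3.98 on the other arrays of the L set. In each group of the L set, array 1 and the other arrays therefore did not come from the same cells.

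**Figure D1:**
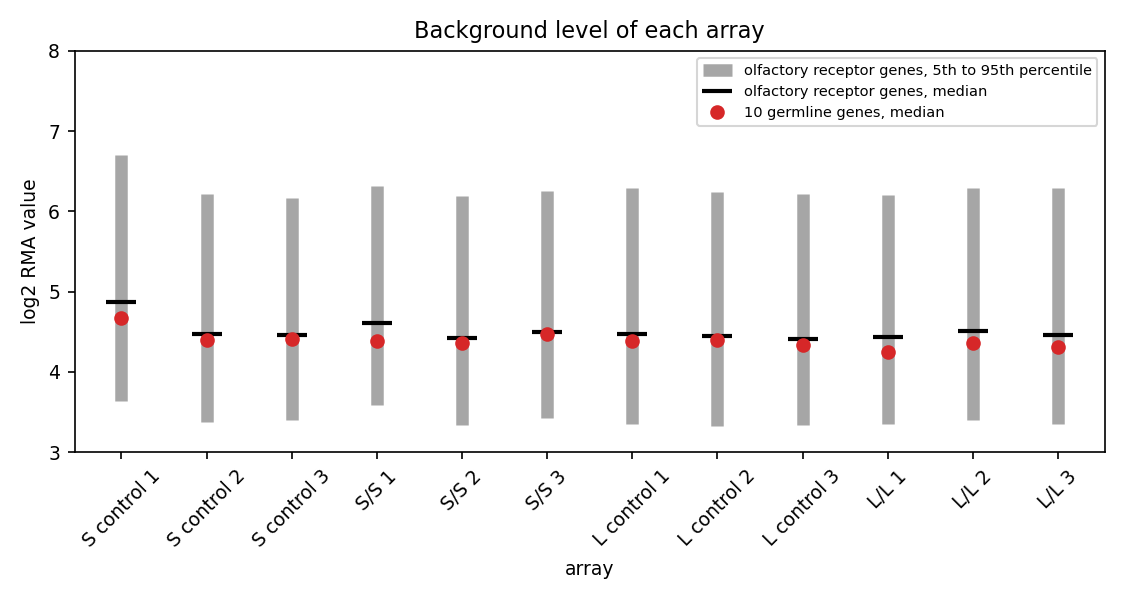
Background level of each array. Grey bars span the 5th to the 95th percentile of the log2 RMA values of 1027 olfactory receptor genes, black marks their median, and red points the median of the 10 germline genes. Array 1 of the S controls has the highest olfactory receptor median, 4.86, and the germline genes lie near the olfactory receptors on all 12 arrays.

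Most of the germline genes were not above background in these fibroblasts. A gene was counted as above background on an array where its value exceeded the 95th percentile of the olfactory receptor genes on the same array, which was 6.70 on S control array 1 and 6.16 to 6.31 on the others. By this rule 8 of the 10 genes (80.0%) were above background on none of the 12 arrays, against 26.4% of all genes. None of the 10 was above it on all 12 arrays, against 62.3% of all genes. Stag3 was above background on 10 arrays, all but S control array 1 and S/S array 1. Tdrkh was above it on 4, the 3 S/S arrays and S control array 3. With the 99th percentile in place of the 95th, 0 of the 10 genes were above background. With the highest value of the 3 Y-linked genes on the 10 arrays without Y-linked transcripts (5.51) as the limit, Stag3 and Tdrkh were above it on all 12 arrays and Ddx4 on S control array 1 alone. That limit was itself a value of S control array 1, where dim probe sets read high. Without this array the limit was 5.17. Ddx4 was then also above it on S control arrays 2 and 3 (5.26 on each), and on no array of the other groups. For the other genes these arrays could not separate a low level from none.

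**Figure D2:**
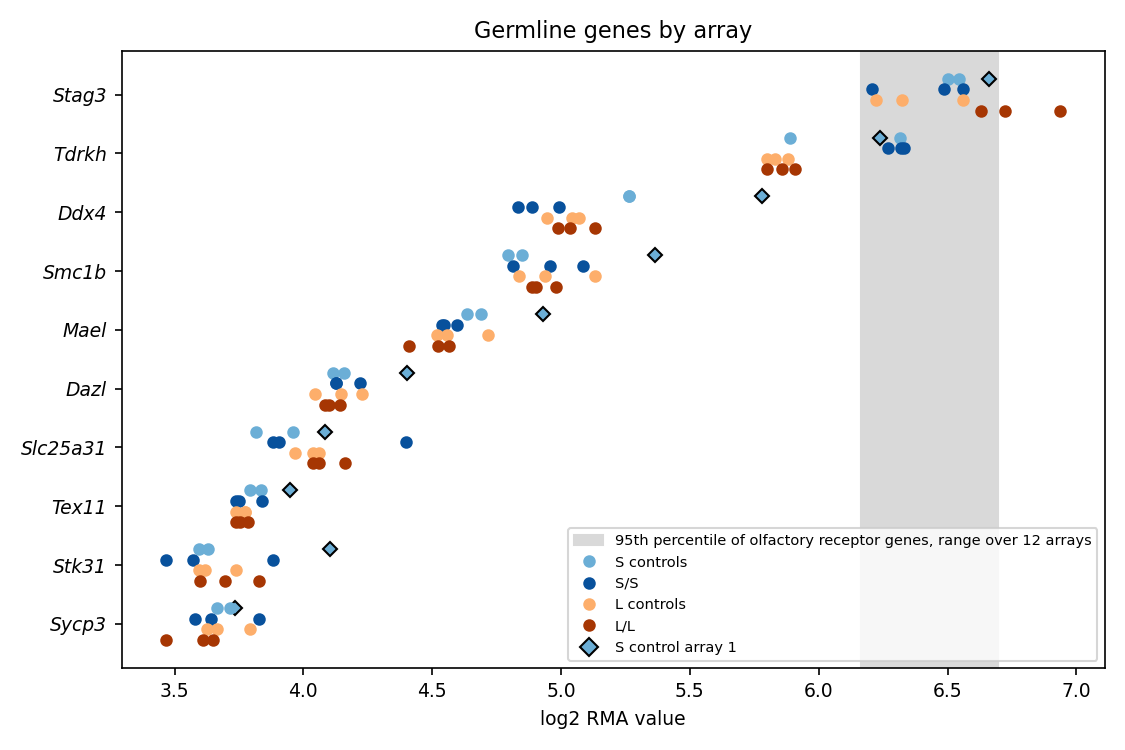
The 10 germline genes by array. Each point is the log2 RMA value of a gene on 1 array, coloured by group with 3 arrays each; the diamond is S control array 1, and the grey band spans the 95th percentiles of the olfactory receptor genes over the 12 arrays (6.16 to 6.70). Only Stag3 and Tdrkh reach the band.

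Among the RNA regulators of the germ granules, Ddx4 (VASA), an RNA helicase that marks germ cells, was never above background, and it lay at the 70.5th percentile of the olfactory receptors (median over 12 arrays). Its values were 5.78, 5.26 and 5.26 in the S controls and 4.89, 4.99 and 4.83 in S/S. In the L set they were 5.04, 4.95 and 5.07 in the wild type and 4.99, 5.13 and 5.03 in L/L. The S controls were highest and overlapped no other group, while the ranges of the other 3 groups overlapped their neighbours in the order L/L, L controls and S/S. Dazl, which binds germ-cell mRNAs and promotes their translation, ranged from 4.04 to 4.40 over the 12 arrays, at the 32.9th percentile of the olfactory receptors.

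Among the genes of the piRNA pathway, Tdrkh, a Tudor and KH domain protein that holds PIWI proteins at the mitochondrial surface while piRNA ends are trimmed, had its highest values in the S set. Its values were 6.24, 5.89 and 6.32 in the S controls and 6.32, 6.33 and 6.27 in S/S. They were 5.88, 5.83 and 5.80 in the L controls and 5.91, 5.86 and 5.80 in L/L. All 3 S/S arrays were above all 6 arrays of the L set, and S control array 2 fell among those of the L set. Mael (maelstrom), needed for transposon silencing in the male germline, read 4.93, 4.64 and 4.69 in the S controls and 4.54, 4.60 and 4.54 in S/S, and 4.41 to 4.72 in the L set. The S/S arrays lay below the 3 wild-type arrays of their set, all of them at background. Stk31, a testis protein with a Tudor and a kinase-like domain, ranged from 3.47 to 4.10 at percentile 13.3 of the olfactory receptors.

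Among the meiotic chromosome genes, Stag3, the subunit that marks meiotic cohesin complexes, came closest to steady detection. Its values were 6.66, 6.54 and 6.50 in the S controls and 6.21, 6.56 and 6.49 in S/S. They were 6.56, 6.32 and 6.22 in the L controls and 6.94, 6.72 and 6.63 in L/L. The group means ran from L/L (6.76) through the S controls (6.57) and S/S (6.42) to the L controls (6.37), and each group overlapped the next. The other meiotic genes stayed at background. Smc1b, the meiotic form of the cohesin core protein SMC1, ranged from 4.80 to 5.36 and was highest on S control array 1. Sycp3, a protein of the lateral elements of the synaptonemal complex, ranged from 3.47 to 3.83, and Tex11, an X-linked gene needed for meiotic crossovers, from 3.74 to 3.95. Slc25a31, the ADP/ATP carrier of male germ cells, read 3.82 to 4.16 on 11 arrays and 4.40 on S/S array 3, also at background. Stag3, Tdrkh, Sycp3, Smc1b, Stk31 and Tex11 overlap other annotated genes in RefSeq (Gal3st4 and Gpc2 in the case of Stag3, Oaz3 in that of Tdrkh), and whether RNA of these reaches the probes was not tested.

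In S/S fibroblasts none of the germline genes differed from the matched wild type at an adjusted p under 0.05, by limma with Benjamini-Hochberg adjustment over all genes. The count was 0 of 10, against 0.12% of all genes (24 of 19938), and without S control array 1 it was again 0 of 10, against 0.14%. Ddx4 had the largest difference. Its mean was 5.44 ± 0.30 (SD, n = 3) in the wild type and 4.90 ± 0.08 in S/S, a log2 difference of -0.53 (SE 0.13, 95% interval -0.81 to -0.25, adjusted p = 0.193). Without S control array 1 the wild-type mean was 5.26 and the difference -0.36 (SE 0.09, 95% interval -0.55 to -0.17, adjusted p = 0.140). The 3 S/S arrays were below every wild-type array. Over the other alternatives the adjusted p of Ddx4 lay between 0.0451, with arrays weighted by their quality, and 0.644. All of these values are below the 95th percentile of the olfactory receptors, so by that rule the difference is one between signals at background. By the Y-linked limit taken without S control array 1 (5.17), S control arrays 2 and 3 were above it and the 3 S/S arrays below it. At an unadjusted p under 0.05 Ddx4 was 1 of 10, against 10.1% of all genes, and without array 1 also 1 of 10, against 11.1%.

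The S/S arrays lay below all 3 wild-type arrays in 2 of the 10 genes, Ddx4 and Mael, against 6.29% of all genes, and above them in 0 of 10, against 5.49%. Without S control array 1 these were 2 and 0, against 13.4% and 11.2% of all genes. Leaving out an array cannot lower such counts. Mael differed by -0.19 (SE 0.11, adjusted p = 0.534) and by -0.10 without array 1. For the 9 genes other than Ddx4 the differences ranged from -0.19 to 0.16, and their 95% intervals stayed between -0.45 and 0.40. Without S control array 1 these 9 ranged from -0.10 to 0.20, with intervals between -0.39 and 0.47. Tdrkh had the highest of them, 0.16 (SE 0.11, adjusted p = 0.600), and 0.20 without array 1. The balance of signs over the 10 genes moved with S control array 1. With all arrays 8 of the 10 differences were negative with a median of -0.08, against -0.04 over all genes and -0.08 over the olfactory receptors, of which 73.3% were negative. Without S control array 1 the counts were 5 negative and 5 positive with a median of 0.01, against -0.01 over all genes and 0.06 over the olfactory receptors.

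**Figure D3:**
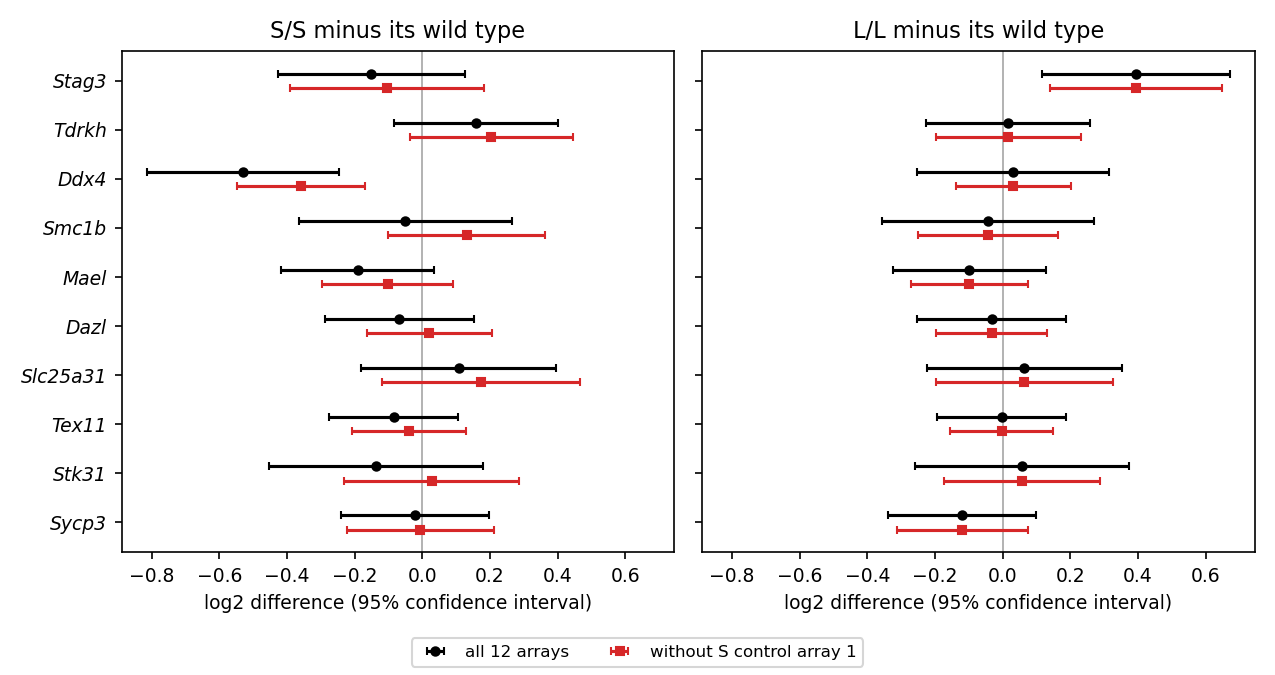
Differences of the 10 germline genes between each mutant and its matched wild type. Points are log2 differences of group means and bars their 95% confidence intervals from limma, over all 12 arrays (black circles) and without S control array 1 (red squares). Ddx4 in S/S (-0.53, and -0.36 without the array) and Stag3 in L/L (0.39) are the differences whose intervals leave out 0, and neither passed at an adjusted p under 0.05.

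In L/L fibroblasts 0 of the 10 genes passed, against 0.0401% of all genes (8 of 19938), and 0 of 10 with S control array 1 left out of the shared fit, against 0.13%. Stag3 read higher in all 3 L/L arrays than in any of its wild-type arrays. Its mean was 6.76 ± 0.16 (SD, n = 3) in L/L and 6.37 ± 0.17 in the wild type, a difference of 0.39 (SE 0.13, 95% interval 0.12 to 0.67). The adjusted p was 0.868, and 0.381 without S control array 1, which leaves this difference as it is and lowers the shared estimate of the spread. With arrays weighted by their quality it was 0.44 with an adjusted p of 0.0193, the lowest among the alternatives. At an unadjusted p under 0.05 Stag3 was 1 of 10, against 3.27% of all genes, and without that array 1 of 10, against 6.23%. The L/L arrays lay above all wild-type arrays in 1 of 10 genes, Stag3, against 9.71% of all genes, and below them in 0 of 10, against 5.1%. The other 9 genes differed by -0.12 to 0.06, with 95% intervals between -0.36 and 0.37. The median of the 10 was 0.01 with 5 negative and 5 positive, against 0.02 over all genes and 0.03 over the olfactory receptors.

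Whether S/S and L/L moved a germline gene differently was tested as the difference of their effects, and 0 of 10 passed, against 0.015% of all genes, with 0 of 10 against 0.105% without S control array 1. The effect of S/S minus that of L/L was -0.56 for Ddx4 (SE 0.19, adjusted p = 0.661) and -0.54 for Stag3 (SE 0.18, adjusted p = 0.664). Without the array these were -0.39 (adjusted p = 0.323) and -0.50 (adjusted p = 0.414). Both were under an unadjusted p of 0.05, making 2 of 10, against 6.5% of all genes, and 2 of 10 against 8.69% without the array.

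The S and L controls share a genotype, and between them 0 of the 10 germline genes passed, against 8.71% of all genes, and 0 of 10 without S control array 1, against 10.4%. Without S control array 2 it was 2 of 10, Ddx4 (adjusted p = 0.0482) and Tdrkh (adjusted p = 0.0222), against 1764 of 19938 genes. The L controls minus the S controls gave -0.42 for Ddx4 (SE 0.13, adjusted p = 0.0690) and -0.31 for Tdrkh (SE 0.11, adjusted p = 0.108). Without array 1 the differences were -0.24 (adjusted p = 0.0972) and -0.26 (adjusted p = 0.157). Ddx4, Tdrkh and Tex11 did not overlap between the controls, 3 of 10 genes lower in the L set against 16.1% of all genes, and 0 of 10 were higher, against 11.5%. Without array 1 these were 3 and 1, counts that could not fall, against 25.2% and 20.9%. At an unadjusted p under 0.05 the count was 2 of 10, against 23.7%, and 2 of 10 without array 1, against 24.8%. This comparison and that of S/S rest on the same 3 S control arrays.

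The other germline genes, 24 measured genes of the piRNA pathway and germ-cell RNA regulation and 34 of meiosis, also stood mostly at background. Of these 58 genes 42 (72.4%) were above background on no array and 7 on all 12. The 7 were Tdrd7, Pld6 and Nanos3 from the first list and Syce2, Mei1, Mei4 and Hspa2 from the second. By the 99th percentile Nanos3 and Mei1 were above background on 0 arrays, Mei4 on 10, and Tdrd7, Pld6, Syce2 and Hspa2 on all 12. None of the 58 passed in S/S or L/L. In S/S 4 (6.90%) had an unadjusted p under 0.05, against 10.1% of all genes, and without S control array 1 it was 1 gene (1.72%), against 11.1%. Their median difference in S/S was -0.11, against -0.04 over all genes and -0.08 over the olfactory receptors, and without the array it was -0.01, against -0.01 and 0.06. In L/L 3 (5.17%) had such a p, against 3.27% of all genes, and with S control array 1 left out of the shared fit 6 (10.3%) did, against 6.23%. Their median in L/L was 0.02, as over all genes.

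Syce2, a central element protein of the synaptonemal complex that was above background on every array, read 8.36, 8.39 and 8.86 in the L controls and 9.16, 9.25 and 9.20 in L/L. The difference was 0.66 (SE 0.13, adjusted p = 0.174), and the adjusted p was 0.0630 without S control array 1. In S/S it differed by -0.21 (adjusted p = 0.567), and by -0.22 without that array, with all 3 arrays below their wild type. Psmc3ip, a partner of the meiotic recombinases above background on 9 arrays, read 6.83, 6.47 and 6.39 in the S controls and 6.17, 6.10 and 6.11 in S/S. Its difference was -0.43 (SE 0.12, adjusted p = 0.232), -0.30 without S control array 1 (adjusted p = 0.209), and 0.25 in L/L. In the piRNA list the smallest p-values in S/S were those of Gtsf1 (-0.37) and D1Pas1 (-0.28), then Exd1 (-0.29) and Pld6 (-0.27). Without array 1 these were -0.18 for Gtsf1, -0.16 for D1Pas1, -0.22 for Exd1 and -0.09 for Pld6. In L/L they were those of Pnldc1 (0.25), Exd1 (-0.30), Tdrd6 (0.23) and Nanos2 (0.22), and the adjusted p of each was at least 0.416 in S/S and rounded to 1 in L/L. In the meiosis list Rad21l (0.25), Ythdc2 (0.44) and Taf7l (-0.25) followed Psmc3ip in S/S, and Mei4 (0.31) and Mei1 (-0.19) followed Syce2 and Psmc3ip in L/L. Without array 1 the S/S differences were 0.23 for Rad21l, 0.21 for Ythdc2 and -0.11 for Taf7l. Between the S and L controls 2 of the 58 passed, against 8.71% of all genes, and 2 without array 1, against 10.4%. Hspa2, a heat shock protein of spermatocytes, was lower in the L controls, with a difference of -0.83 (SE 0.11, adjusted p = 0.00174) and of -0.74 without array 1, and Sycp1, of the synaptonemal transverse filaments, was higher by 0.42 (SE 0.10, adjusted p = 0.0268) and by 0.39 without array 1, the latter at background on every array.

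**Figure D4:**
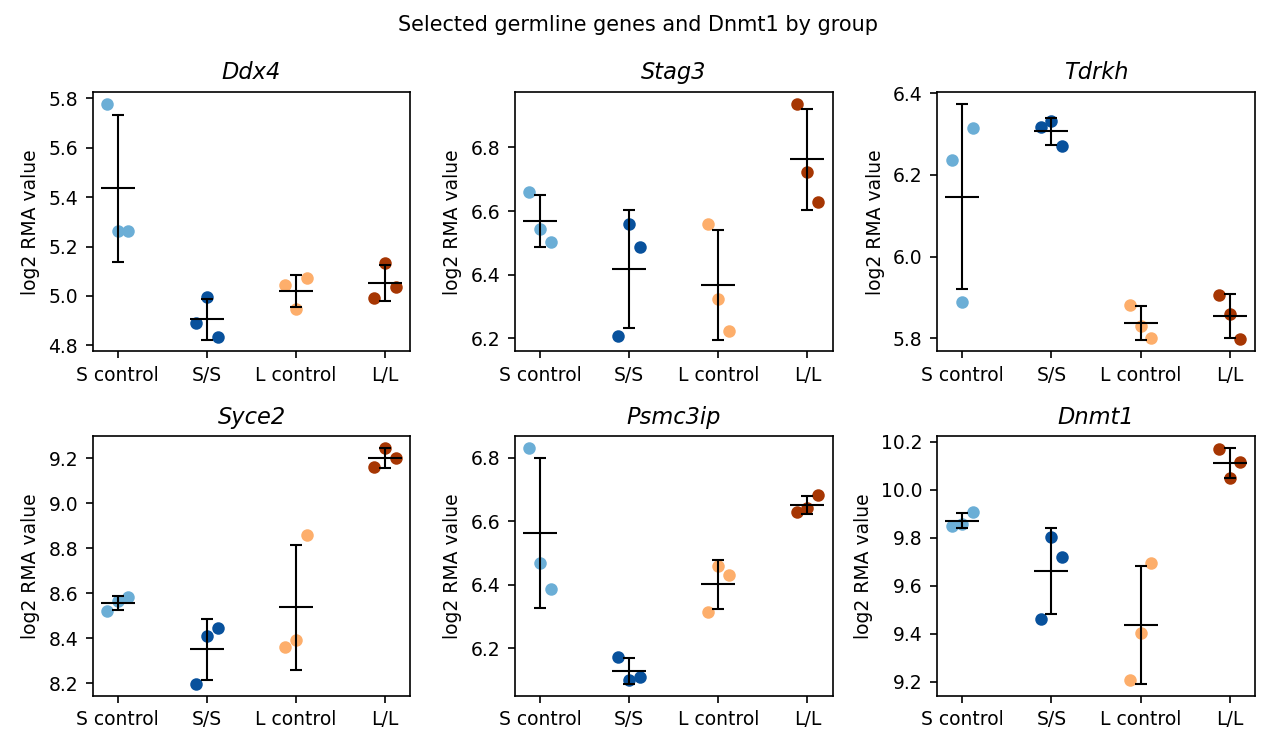
Ddx4, Stag3, Tdrkh, Syce2, Psmc3ip and the maintenance DNA methyltransferase gene Dnmt1 by group. Points are log2 RMA values of single arrays, horizontal bars group means and error bars the SD (n = 3), and each panel has its own axis. In Syce2, Psmc3ip and Dnmt1 all S/S arrays lie below and all L/L arrays above their wild types.

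The repressors known for silencing germline genes were nearly all above background. Of 24 genes, which include the subunits of the E2F6 complex, DNA methyltransferases and histone methyltransferases, 23 were above background on all 12 arrays and Rif1 on some. None passed in S/S or L/L. E2f6 differed by -0.10 in S/S (SE 0.19, adjusted p = 0.847), and by -0.34 without S control array 1 (adjusted p = 0.407), and by 0.22 in L/L. Mga, the E-box factor of the complex, differed by 0.62 in S/S (SE 0.26, adjusted p = 0.456) and by 0.26 without the array. Ring1 (-0.23), Yaf2 (0.31) and Ehmt1 (0.31) were next by p, with -0.25, 0.16 and 0.15 without it. In L/L Dnmt1 read 10.17, 10.05 and 10.12 against 9.21, 9.40 and 9.70 in the wild type. The difference of 0.68 (SE 0.13) had an adjusted p of 0.155, and 0.0602 without S control array 1. Tfdp1, the DNA-binding partner of E2F proteins, differed by 0.38 in L/L (adjusted p = 0.426), Tfdp2, which plays the same part, by 0.23, and Uhrf1, which guides DNMT1 to replicated DNA, by 0.53. Between the S and L controls 1 of the 24 passed, against 8.71% of all genes, and 2 without array 1, against 10.4%. With all arrays it was Tfdp1, lower in the L controls, with a difference of -0.54 (SE 0.10, adjusted p = 0.00654), and of -0.55 without array 1. At an unadjusted p under 0.05 the count was 10 (41.7%), against 23.7% of all genes, and 10 without array 1, against 24.8%.

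Of the somatic counterparts of the germline genes 7 of 8 (Smc1a, Rad21, Stag1, Stag2, Slc25a4, Slc25a5 and Ddx3x) were above background on all 12 arrays and Smc3 on 11. None passed in either mutant. In S/S all 8 differences were positive, with a median of 0.23, and without S control array 1 only 3 were, with a median of -0.04. Over all genes these medians were -0.04 and -0.01. Stag2, the mitotic relative of Stag3, went from 0.62 to 0.16 and Smc1a, that of Smc1b, from 0.24 to -0.02.

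Markers of other cells that such cultures could hold were read beside these values. In bulk RNA fewer cells of a type and less RNA per cell cannot be told apart. All 12 fibroblast markers were above background on every array. Of 15 markers of primordial germ cells and pluripotent cells, 4 (Nanog, Dppa4, Sall4 and Lin28a) were above background on all 12 arrays and 9 on none, among them Pou5f1, Dppa3 and Kit. Of all genes 62.3% were above it on all 12 arrays and 26.4% on none. By the 99th percentile those 4 markers were above background on 0 arrays. The mean level of the 15 markers ranged from 5.92 to 6.27 in the S controls and from 5.80 to 5.91 in S/S, and from 5.84 to 5.87 and 5.80 to 5.94 in the L set. The 6.27 was that of S control array 1, and arrays 2 and 3 read 5.92 and 5.93. The median difference of the 15 markers in S/S was -0.18, and -0.08 without array 1. Of 11 measured markers of gonadal somatic cells 7 were above background on all arrays, Foxl2, Nr5a1, Dhh, Sox9, Gata4, Wt1 and Inha. By the 99th percentile Foxl2, Sox9 and Inha were above it on all 12 arrays, Wt1 on 6, Gata4 on 1, and Nr5a1 and Dhh on 0. All 12 macrophage markers had a positive difference in S/S, with a median of 0.71 (0.55 without S control array 1), although none passed. In 11 of the 12 the S/S arrays lay above all wild-type arrays, against 5.49% of all genes. Without the array the count was 11, and it could not be lower, against 11.2%. In L/L 11 of the 12 differences were negative, with a median of -0.34, and none passed. The mean level of the 12 markers was 7.84 to 8.13 in the S controls, 8.68 to 8.79 in S/S, 7.39 to 9.47 in the L controls and 7.04 to 8.67 in L/L. Their part in the germline gene values was not tested. Rb1 itself read 8.34 to 8.89 in the S controls and 9.35 to 9.72 in S/S, a difference of 0.87 (SE 0.17, adjusted p = 0.0976) and of 0.69 without array 1 (adjusted p = 0.114), and it differed by 0.36 in L/L. The labels do not say whether either allele should alter the RNA level, so these values do not check the genotypes.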

How the data were processed

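RNA was measured on Affymetrix Mouse Gene 1.0 ST arrays, 1 per sample. The deposited values are log2 RMA values that the authors made with Partek, per the labels and the series' design text. The version, the genome build and which arrays were normalized jointly are not given in the sources used here. That the scale is log2 was read from the values (2.43 to 14.67). The table held 35556 probe sets, of which the supplied annotation gave 1 symbol to 21789, several to 1621 and none to 12146. Probe sets with 1 symbol were used, and for 999 genes with several probe sets the one with the highest mean, which left 19938 genes. Of these, 19856 matched a RefSeq table (GRCm38.p6).

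Differences were fitted with limma 3.58.1 in R 4.3.3, with 4 group means over 12 arrays (8 residual and 5.19 prior degrees of freedom), two-sided tests and Benjamini-Hochberg adjustment over all genes. The fit was tested on simulated data. No dim gene was left out. Precision is limited by having 3 arrays a group. The members, gene lists and tests were chosen with earlier results of these data known. The rule for named genes was Rb1, the 10 genes, in each list those that passed and the 4 of smallest p in S/S and in L/L, and the somatic counterparts. The marker lists are given as counts. E2f6, Rif1 and the genes named only for being above background were chosen after their values were seen. For germline genes above background on all 12 arrays the rule also provided for the 3 genes of highest correlation, and there was no such gene. Alternatives left out each array, fitted each set alone, left out arrays with Y-linked RNA, added the replicate number as a block, weighted arrays, or changed the normalization, centring, filter, moderation and probe set rule.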

Additional observations from a re-analysis of the deposited data

Results flagged for a closer look

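In 3 genes of the lists every S/S array lay below and every L/L array above the matched wild type, and 0 of the 10 germline genes showed this. The 3 are 1.99% of the 151 genes searched, and the same pattern was found in 145 of 19938 genes (0.727%). The effect of S/S minus that of L/L was -0.87 for Syce2 (adjusted p = 0.284 by limma), -0.68 for Psmc3ip (adjusted p = 0.364) and -0.89 for Dnmt1 (adjusted p = 0.255). The test of this difference was passed by none of them with all arrays. Over the alternatives its adjusted p ranged from 0.0109 to 0.976 for Syce2, from 0.0127 to 0.976 for Psmc3ip and from 0.0105 to 0.976 for Dnmt1, with the lowest under array weights. All of the alternatives kept the sign of all 3 differences. For genes chosen by this pattern, leaving out arrays could not have turned it. Without S control array 1 the adjusted p was 0.119 for each.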

How the results depend on the processing

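The 10 germline genes gave 0 calls in S/S, L/L and the difference of effects under every alternative except array weights, which gave 1 in S/S (Ddx4, -0.35, adjusted p = 0.0451) and 1 in L/L (Stag3, 0.44, adjusted p = 0.0193). Array weights gave S control array 1 0.0774 and array 2 5.88, and over all genes 415 passed in S/S and 336 in L/L. Between the S and L controls the calls were 2 with array weights (Ddx4, Smc1b), where 6520 of 19938 genes passed, and 1 with quantile normalization (Ddx4). The main fit, with 0 calls, passed 1736 of the 19938 genes between these controls, and the 1 call is not set apart from that share. Leaving out 1 array gave 0 to 2 calls. The 2 (Ddx4 at 0.0482, Tdrkh at 0.0222) came without S control array 2, where 1764 genes passed. The replicate numbers did not pair all of the arrays. Same-numbered deviations correlated by 0.388, 0.475 and -0.122 in the S set and 0.601, 0.0576 and 0.359 in the L set. S control arrays 1 and 2 and L control arrays 1 and 3 correlated best with the mutant array of their own number. S control array 3 and L control array 2 did not. With the replicate block the genes passing changed from 24 to 37 in S/S and from 8 to 5 in L/L, with 0 of the 10 genes called in either. The block gives no value between the S and L controls, because the numbers lie within each set. Fitting each set alone gave 44 in S/S and 5 in L/L. Leaving out both arrays with Y-linked RNA gave 37, 2 and, between the S and L controls, 304. Array weights gave 415, 336, 293 for the difference of effects (3 otherwise) and 6520, and quantile normalization 7 for that difference. Centring on the olfactory receptor median gave 2, 1, 1 and 161. Leaving out both arrays numbered 1 of the S set, an alternative chosen after seeing the data, gave 3, 42, 8 and 2870.

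Leaving out 1 array gave 2 to 38 genes in S/S, 2 to 26 in L/L, 3 to 21 for the difference and 525 to 2078 between the S and L controls. In S/S the count changed over 1.5 times without S control array 2 (3), S/S array 1 (3), 2 (2) or 3 (8), L control array 1 (38) or 2 (7), and L/L array 1 (11), 2 (13) or 3 (13). In L/L it did without S control array 1 (26), L control array 1 (3) or 2 (2), and L/L array 1 (2), 2 (4) or 3 (2). The difference gave 21 without S control array 1, 5 without S/S array 3 and 7 without L control array 3. The contrast of the controls gave 525, 714 and 1098 without L control arrays 1, 2 and 3.

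Differences that turned sign were small and not called. On leaving out 1 array the S/S ranges were -0.12 to 0.021 for Dazl, -0.060 to 0.20 for Slc25a31, -0.094 to 0.030 for Sycp3, -0.26 to 0.028 for Stk31 and -0.15 to 0.13 for Smc1b. The L/L ranges were -0.0080 to 0.063 for Ddx4, -0.079 to 0.012 for Dazl, -0.0095 to 0.045 for Tdrkh, -0.0039 to 0.11 for Stk31, -0.11 to 0.038 for Smc1b and -0.017 to 0.0080 for Tex11. Without the arrays with Y-linked RNA, Mael (0.0052) and Tex11 (0.0043) turned in L/L. Array weights turned Smc1b in S/S (0.10) and Tex11 in L/L (0.0078). Quantile normalization turned Dazl (0.00018), Sycp3 (0.011) and Smc1b (0.037) in S/S and Tdrkh in L/L (-0.0052). Centring on olfactory receptors turned Dazl (0.020), Sycp3 (0.066), Smc1b (0.038) and Tex11 (0.0032) in S/S, and Ddx4 (-0.0010) and Tdrkh (-0.016) in L/L. Without both arrays numbered 1 of the S set, Stag3 (0.00051) and Smc1b (0.063) turned in S/S. The cause was not tested. Above background were 0 genes at the 99th percentile, and 2 on all 12 arrays by the Y-linked limit. A filter at a mean of 6 left only Stag3 and Tdrkh of the 10, with no call. Signals at background limit what these arrays can show for the other 8.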
